A study of Mus musculus with 12 samples.

Results

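SFZ and DZ chondrocytes of libraries labelled R3-cKO were compared across all genes, to ask which differences between the superficial zone (SFZ) and the deeper zone (DZ) of articular cartilage were large and which cartilage programs separated the zones under that label. The 6 libraries, 3 of each zone, were chosen by their genotype and zone labels from 12 libraries in the series, and the other 6 came from R3-Cntl mice, again 3 of each zone. R3-cKO mice carried floxed Runx3 alleles (Runx3 fl/fl) together with a Cre recombinase driven by Col2a1, which acts in chondrocytes. R3-Cntl mice were littermates with Runx3 fl/fl and no Cre, and all were C57BL/6J mice of 5 days of age. SFZ cells were those released by trypsin and a short collagenase step from cartilage at the ends of the femur and tibia, after ligaments and tendons had been cut away. DZ cells were those that a second, longer collagenase step released from what was left. The cells were grown as monolayers on fibronectin, so each zone is a fraction defined by its order of release and was measured after plating, and zone cannot be told apart from digestion. Values were read as FPKM (fragments scaled to transcript length and to the total of each library) for 17536 genes, of which 17048 were above 0 in at least 1 library. The read depth behind these values is unknown.

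Articular cartilage is layered. Cells of the superficial zone are flattened, lie in thin collagen fibrils parallel to the surface and secrete lubricin, the product of Prg4, which lowers friction. Deeper chondrocytes are rounded and fill the matrix with type II collagen and aggrecan, a proteoglycan whose chondroitin sulfate chains hold water, and in the growing epiphysis the deepest of them can enlarge and mineralize. Runx3 belongs to the Runx family of DNA-binding factors, which pair with Cbfb, and Runx2 of the same family drives hypertrophy and bone formation.

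The gene targeted in these mice did not bear out the label. Runx3, which spans 134676567 to 134733905 on the forward strand of mm9 chromosome 4, stood at 11.83, 9.07 and 3.42 FPKM in R3-cKO SFZ libraries 1 to 3, against 10.73, 5.98 and 6.65 FPKM for R3-Cntl SFZ. DZ values were 15.95, 12.66 and 8.14 FPKM for R3-cKO and 12.67, 12.65 and 7.66 FPKM for R3-Cntl. Runx3 was therefore not lower under the cKO label, and a value per gene does not tell whether the floxed part was present, so the libraries are called by their label throughout. Between the zones Runx3 values overlapped, though the SFZ library was the lower in each of 3 pairs, and the difference on the log2(FPKM + 1) scale, SFZ minus DZ, was -0.63 (SE 0.44, and 0.16 with the number as a block). It was -0.18 without SFZ library 3, and limma with the block gave adjusted p = 0.0911. Runx2 measured 13.2, 11.4 and 11.8 FPKM in the SFZ and 10.3, 9.21 and 8.38 FPKM in the DZ, 0.35 apart (SE 0.12), and Runx1 and Cbfb differed by -0.20 (-0.37 without SFZ library 3) and 0.38. None of these 4 genes passed a test below, and their median difference was 0.07 (-0.02 to 0.24 with a library left out).

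The 6 libraries did not fall apart by zone alone. SFZ library 2 correlated with DZ library 2 at 0.979 across 11336 genes, more closely than with SFZ libraries 1 and 3 (0.944 and 0.912). SFZ library 3 stood at the other end, with a score of 53.6 on the leading principal component against 24.4 and -17.3 for SFZ libraries 1 and 2, and it held the highest sum of fibrous genes and the lowest sum of cartilage matrix genes in the SFZ. Within each number the SFZ library lay above its DZ partner on that component, whose DZ scores were -26.2, -38.0 and 3.56. After each zone's mean was removed, each SFZ library correlated best with the DZ library of its own number. The numbers were therefore taken as pairs, and tests are given without and with the number as a block. The labels do not say that a number marks the same animal, and the pairing was drawn from the values then tested. In R3-Cntl same-number libraries correlated at 0.57, 0.11 and -0.15, yet a block raised the limma calls there from 140 to 831. A rise in calls with the block thus does not by itself show true pairs. Because SFZ library 3 stands apart, gene differences that it moved by more than 1.5 times are also given without it, as are the main ones. Y-linked transcripts summed to 28.3 and 29.6 FPKM in the SFZ and DZ libraries of number 1, and to 0.06 FPKM or less in the other 4.

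**Figure D1:**
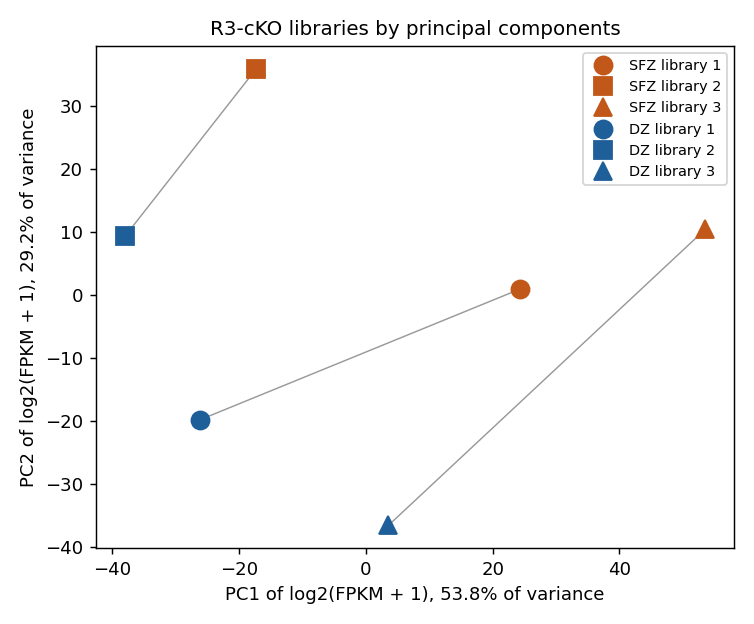
Principal component scores of the 6 R3-cKO libraries from log2(FPKM + 1) values, with lines joining libraries of the same number. SFZ library 3 lies farthest to the right at 53.6, and SFZ library 2 lies at -17.3, left of DZ library 3 at 3.56.

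Under the cKO label the largest zone differences were toward the SFZ, and 5 of the 12 largest without overlap were in the list of tendon, ligament and fibrous collagen genes. The Wnt antagonist Sfrp2, the fibrous matrix proteins Aspn, Postn and Thbs4, the heparin-binding growth factor Ptn and the tendon membrane protein Tnmd were each more than 5 log2 units higher in SFZ than in DZ cells, and in DZ cells most of them were near 0. In the other direction differences were fewer and smaller, led, among genes without overlap and with a mean of at least 10 FPKM in the higher zone, by Epyc, a small proteoglycan of epiphyseal cartilage, at -2.85 (SE 0.72), and by the lactate exporter Slc16a3 at -2.31 (SE 0.57). Of 22 cartilage matrix genes, 19 were lower in SFZ than in DZ cells, with Acan at -1.82 (SE 0.50) and Col2a1 at -1.54 (SE 0.42), but none of the 19 passed a test. The surface gene Prg4 did not separate the zones.

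Without a block, limma on log2(FPKM + 1) with Benjamini-Hochberg adjustment called 2 of 11336 genes higher in SFZ cells (0.0176%) and 0 higher in DZ cells (0%). At an unadjusted p under 0.05 there were 1258 genes higher in the SFZ and 344 higher in the DZ, and median-of-ratios scaling, which moved the median of all genes from 0.09 to -0.01, made these 758 and 618. With the replicate number as a block, which sets each SFZ library against the DZ library of its number, limma called 285 genes higher in SFZ cells (2.51%) and 67 higher in DZ cells (0.591%), and 186 and 32 of them differed more than 2-fold. By size alone, 324 genes were over 2-fold higher in SFZ cells with no overlap between the 3 SFZ and 3 DZ values (2.86%), and 87 were over 2-fold higher in DZ cells (0.767%). Over 4-fold there were 81 and 4. At any size, 1899 of the 11336 genes were higher in SFZ cells without overlap and 481 were higher in DZ cells. Lack of overlap alone therefore does not mark a large difference. Of all 11336 genes 7418 were higher in SFZ cells (65.4%) and 3918 in DZ cells (34.6%), which is the share to set beside each list below. These differences understate those of genes with low values because of the added 1. Of the 324 genes, 64 had passed the filter on low values through their SFZ libraries alone and so had to differ, as had 5 of the 87. Of the 285 genes called with the block, 35 had done so, and 3 of the 67.

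The counts rested on single libraries, and the calls with the block also on the scaling. The 2 calls without a block became 0 when SFZ library 1 or any single DZ library was left out, 11 without SFZ library 2 and 13 without SFZ library 3. The 285 and 67 calls with the block became 0 and 0 without pair 1, 123 and 31 without pair 2, and 40 and 1 without pair 3. They were 182 and 79 with median-of-ratios scaling and 59 and 18 with quantile normalization. The 324 SFZ genes over 2-fold became 552 without SFZ library 2 and 269 without SFZ library 3. The 87 DZ genes became 137, 169 and 51 without SFZ library 1, 2 or 3, and 139 without DZ library 2. A test called below the test with the block is the limma test with the replicate number as a block, adjusted over all 11336 genes.

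The 2 genes called without a block were surface proteins with no overlap between the zones. Cd34 (chr1:196765015-196787486, forward strand of mm9), a sialomucin of progenitor and stromal cells, measured 17.1, 24.7 and 13.9 FPKM in SFZ libraries 1 to 3 and 0.81, 1.09 and 0.76 FPKM in the DZ. The values lay far apart in all 3 pairs, and the difference was 3.34 (SE 0.22, limma adjusted p = 0.019, and 0.0141 with the block). Cdh13 (chr8:120807633-121848821, forward strand of mm9), a cadherin anchored to the membrane by a lipid and named here after its values were seen, measured 5.30, 6.59 and 6.43 FPKM in the SFZ and 0.10, 0.36 and 0.27 FPKM in the DZ. Its difference was 2.52 (SE 0.15, limma adjusted p = 0.019). Cdh13 passed the filter on low values through its SFZ libraries alone and so had to differ, and the SFZ libraries of Cd34, with 1 DZ value above 1 FPKM, would also have sufficed for it. Exons of Cd34 overlap those of Gm16897, and reads of the overlapped part cannot be told apart.

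Sfrp2, Postn and Thbs4, which mark the SFZ fraction here and were picked with earlier results of these data known, were near absent from DZ cells. Sfrp2 (chr3:83570243-83578238, forward strand of mm9), a secreted Wnt antagonist with exons that overlap Gm16790, measured 78.1, 39.05 and 584 FPKM in SFZ libraries 1 to 3 and 0.15, 1.01 and 2.33 FPKM in the DZ. Postn (chr3:54165031-54194961, forward strand of mm9), a matricellular protein of ligament and periosteum, measured 63.9, 62.6 and 333 FPKM in the SFZ and 0.63, 1.02 and 2 FPKM in the DZ. Thbs4 (chr13:93521545-93564773, reverse strand of mm9), a thrombospondin of tendon matrix, measured 36.7, 45.1 and 108 FPKM in the SFZ and 0.01, 1.04 and 0 FPKM in the DZ. SFZ library 3 was the highest for each of the 3 genes, and no SFZ value came near a DZ value. The differences were 5.96 (SE 0.997), 5.70 (SE 0.67) and 5.50 (SE 0.47), and 4.83, 4.90 and 5.03 without SFZ library 3. Limma gave adjusted p = 0.102, 0.0736 and 0.051 without a block and 0.0335, 0.0284 and 0.0293 with it, so that the call came with the block. For Thbs4, with DZ values of 0.01, 1.04 and 0 FPKM, the SFZ libraries alone would have sufficed for the filter on low values. In R3-Cntl the differences of the 3 genes were 5.62, 4.72 and 5.23.

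Most of the tendon, ligament and fibrous collagen list was higher in SFZ cells. Of its 24 genes 22 were tested, and 20 of them were higher in SFZ cells (90.9%, against 65.4% of all genes). Over 2-fold higher with no overlap were 14 (63.6%, against 2.86%), and 0 were so in the DZ direction. With the block limma called 10 in the SFZ direction, 45.5% against 2.51% of all genes (Tnmd, Thbs4, Col1a1, Col1a2, Col5a1, Col12a1, Col14a1, Postn, Loxl1 and Mfap5) and 0 in the DZ direction. Without Tnmd and Mfap4, which entered the test through their SFZ libraries alone, 12 of 20 were over 2-fold and 9 were called. Both counts still hold Postn and Thbs4, which were picked with earlier results of these data known, so the shares are in part set by that choice. The list's median difference was 1.501 against 0.09 over all genes tested, 1.29 without SFZ library 3, and 1.66, 1.08 and 1.71 in pairs 1 to 3. In bulk cells, fewer cells of a kind and less RNA per cell cannot be told apart.

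Tnmd (chrX:130385519-130400116, forward strand of mm9), tenomodulin, a membrane protein of mature tendon and ligament cells, measured 31.1, 26.2 and 85.6 FPKM in SFZ libraries 1 to 3 and 0, 0.27 and 0 FPKM in the DZ. Its difference was 5.29 (SE 0.44, limma adjusted p = 0.051, and 0.0293 with the block), and 4.77 without SFZ library 3. Tnmd passed the filter on low values through its SFZ libraries alone, so its test adds little to its values. Col1a1, a chain of the type I collagen of tendon and bone, measured 1937, 1849 and 4793 FPKM in the SFZ and 52.8, 244 and 576 FPKM in the DZ. In each pair the SFZ library held several times as much, with a difference of 3.71 (SE 0.89), and Col1a2, the partner chain, differed by 3.33 (SE 0.69). Limma with the block gave adjusted p = 0.0439 and 0.0293. Col14a1, a fibril-associated collagen, measured 16.6, 10.4 and 69.0 FPKM against 0.13, 0.55 and 1.67 FPKM, a difference of 3.85 (SE 0.70). The SFZ libraries of Col14a1 alone would have sufficed for the filter.

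SFZ library 3 set the size of some members. Mfap4, a microfibril-associated glycoprotein, measured 10.2, 5.96 and 349 FPKM in the SFZ and 0.35, 0.14 and 0.53 FPKM in the DZ, and its difference of 4.50 (SE 1.43) became 2.73 without that library. It entered the test through its SFZ libraries alone and did not pass limma with the block (adjusted p = 0.0885). Other fibrous genes differed less. Scx, the transcription factor of tendon progenitors, measured 18.8, 18.9 and 23.0 FPKM in the SFZ and 12.9, 16.1 and 7.77 FPKM in the DZ, without overlap and 0.73 apart, and Tnc, tenascin C, differed by -0.20 with overlapping values. Scx and Tnc were named after their values were seen.

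**Figure D2:**
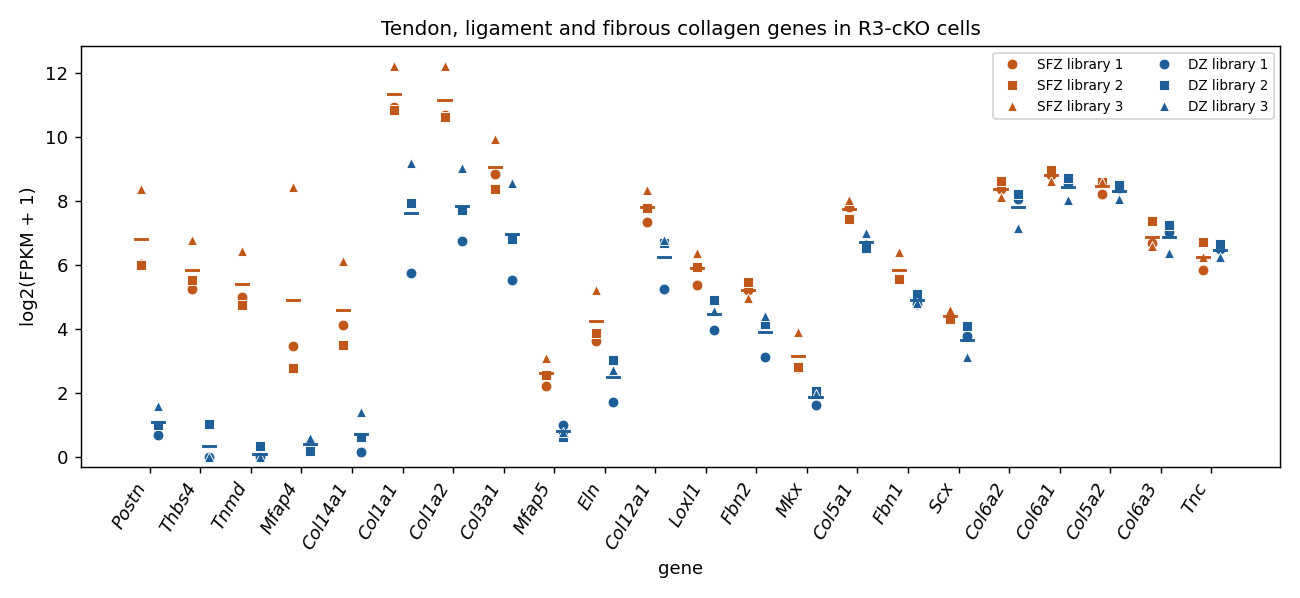
Values of the 22 tested tendon, ligament and fibrous collagen genes in each R3-cKO library on the log2(FPKM + 1) scale, with bars at the mean of 3 libraries. Postn, Thbs4, Tnmd, Mfap4 and Col14a1 lie near 0 in the DZ, and SFZ library 3 is often the highest point.

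The other genes of largest difference toward the SFZ came from several kinds of protein. Aspn, asporin, a small leucine-rich proteoglycan that binds collagen, measured 127, 140 and 392 FPKM in SFZ libraries 1 to 3 and 0.18, 2.33 and 11.5 FPKM in the DZ, a difference of 5.71 (SE 0.89). Ptn, pleiotrophin, measured 33.3, 24.5 and 342 FPKM against 0.60, 0.58 and 0.47 FPKM, a difference of 5.43 (SE 0.95). Both were well separated, with SFZ library 3 the highest, and both passed limma with the block (adjusted p = 0.0284 and 0.0497), though Ptn had entered the test through its SFZ libraries alone. Rspo2, a secreted amplifier of Wnt signaling, differed by 3.77, the water channel Aqp1 by 3.77 and Myoc, the secreted glycoprotein myocilin, by 4.02. These 3 passed limma with the block as well (adjusted p = 0.0417, 0.0284 and 0.0451), of which Rspo2 and Myoc had entered it through their SFZ libraries alone. Kctd12, an auxiliary subunit of GABA-B receptors, differed by 4.03 and missed it (adjusted p = 0.0502).

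Of the 12 largest differences toward the DZ among genes without overlap and with a mean of at least 10 FPKM, 3 were in the cartilage matrix list (Acan, Col2a1 and Matn3). Epyc (chr10:97106702-97145088, forward strand of mm9), whose exons overlap Gm10754, measured 78.3, 49.7 and 10.2 FPKM in SFZ libraries 1 to 3 and 345, 182 and 267 FPKM in the DZ. Slc16a3 measured 8.06, 11.6 and 1.6 FPKM in the SFZ and 30.1, 29.8 and 36.6 FPKM in the DZ. SFZ library 3 was the lowest for both, and without it their differences were -2.02 and -1.63. Smpd3, a sphingomyelinase needed for mineralization, differed by -2.10, the surface protein Cd24a by -1.94, Tnfrsf11b, the osteoclast-blocking decoy receptor osteoprotegerin, by -1.84 and the zinc finger gene Zfp385b by -1.83. None of these 6 passed limma with the block (adjusted p = 0.0669, 0.0794, 0.131, 0.0926, 0.0538 and 0.0502).

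Among those 12, which were chosen by this same difference, 3 genes passed with the block (against 0.591% of all genes). Because of that choice the count adds little to the values. Cthrc1 (chr15:38908478-38918667, forward strand of mm9), a secreted collagen triple helix repeat protein, measured 68.1, 76.0 and 48.4 FPKM in SFZ libraries 1 to 3 and 227, 178 and 184 FPKM in the DZ. Its difference was -1.62 (SE 0.20), with limma adjusted p = 0.0753 and, with the block, 0.0335. Angptl7 (chr4:147869292-147874569, reverse strand of mm9), a secreted angiopoietin-like protein, measured 2.63, 12.0 and 3.16 FPKM in the SFZ and 16.1, 40.0 and 21.0 FPKM in the DZ. Number 2 was high in both zones, and the difference was -2.10, with SE 0.56 and adjusted p = 0.204 in limma and, with the block, SE 0.16 and adjusted p = 0.0293. Loxl2, an enzyme that cross-links collagen, measured 52.3, 67.6 and 27.9 FPKM against 165, 166 and 128 FPKM, a difference of -1.69 (SE 0.33, adjusted p = 0.035 with the block in limma).

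Promoters of genes from both ends of the range are shown, and the members of each end share a direction because they were chosen by it. RefSeq promoters of build GRCm38.p6, the 250 bases before the gene start, were matched for 15 of the 24 genes with the largest differences. The Runx motif was searched as TGTGGT or TGCGGT and the Sox core as ACAATG, each on both strands, and capitals mark a match. Of all 27025 promoters of that length 18.7% held the Runx letters and 10.99% the Sox letters, and of the 15, 0 held the former and 2, Epyc and Slc16a3, the latter. A match is a description of the letters and not of binding. Thbs4 lies at chr13:92794819-92795068 (-), Tnmd at chrX:133850758-133851007 (+) and Postn at chr3:54359017-54359266 (+), all higher in SFZ cells. Epyc lies at chr10:97643818-97644067 (+) and Acan at chr7:79052976-79053225 (+), both higher in DZ cells.
Thbs4: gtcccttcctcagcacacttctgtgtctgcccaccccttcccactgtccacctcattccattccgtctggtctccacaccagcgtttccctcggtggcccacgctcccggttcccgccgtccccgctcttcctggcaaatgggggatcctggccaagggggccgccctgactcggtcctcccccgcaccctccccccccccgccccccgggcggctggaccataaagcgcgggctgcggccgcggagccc
Tnmd: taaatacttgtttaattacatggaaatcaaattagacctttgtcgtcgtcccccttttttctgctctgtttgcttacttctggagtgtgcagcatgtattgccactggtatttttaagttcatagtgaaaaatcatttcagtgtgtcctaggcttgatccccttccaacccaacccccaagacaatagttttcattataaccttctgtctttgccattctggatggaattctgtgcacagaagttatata
Postn: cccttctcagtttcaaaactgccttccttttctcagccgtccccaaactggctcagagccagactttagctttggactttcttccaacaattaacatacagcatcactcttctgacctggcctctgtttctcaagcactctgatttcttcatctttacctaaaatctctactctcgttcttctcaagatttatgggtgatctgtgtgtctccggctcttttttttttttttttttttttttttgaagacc
Epyc: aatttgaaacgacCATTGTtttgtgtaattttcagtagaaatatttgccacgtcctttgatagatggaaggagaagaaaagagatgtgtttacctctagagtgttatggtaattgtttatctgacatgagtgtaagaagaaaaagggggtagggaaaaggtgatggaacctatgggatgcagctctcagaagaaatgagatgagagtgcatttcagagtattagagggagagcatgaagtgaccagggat
Acan: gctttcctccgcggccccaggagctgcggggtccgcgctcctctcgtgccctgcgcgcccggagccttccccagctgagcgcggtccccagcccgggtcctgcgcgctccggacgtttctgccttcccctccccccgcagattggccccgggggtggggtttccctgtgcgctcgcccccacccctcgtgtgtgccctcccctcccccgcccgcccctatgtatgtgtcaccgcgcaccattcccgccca

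Among the program lists, which leave out cell type markers, cartilage matrix had the lowest median and the largest share of genes higher in the DZ. All 22 were tested, and 19 were higher in DZ than in SFZ cells with a median difference of -0.95 against 0.09 over all genes tested. That is 86.4% of the list against 34.6% of all genes. Over 2-fold higher in the DZ with no overlap were 4 (18.2%, against 0.767% of all genes). With the block limma called 0 of the 19, in a direction in which it called 0.591% of all genes, so this 0 says little. The median was -0.80 without SFZ library 3, and -0.51, -0.58 and -1.86 in pairs 1 to 3, so pair 3 was set apart. In R3-Cntl it was -1.62, with 16 genes over 2-fold higher in the DZ without overlap. Whether the medians differ was not tested over the list, and 0 of its genes passed the test of the difference between genotypes given below.

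Col2a1 (chr15:97806033-97835155, reverse strand of mm9), type II collagen and also the gene whose control regions drive the Cre, measured 8275, 5020 and 3049 FPKM in SFZ libraries 1 to 3 and 15594, 11248 and 17839 FPKM in the DZ. It took 0.738 to 1.94% of the FPKM of an SFZ library and 2.76 to 4.45% of a DZ library. Acan (chr7:86198369-86259985, forward strand of mm9), the aggrecan core protein, measured 515, 380 and 149 FPKM in the SFZ and 1418, 738 and 1230 FPKM in the DZ. All 3 DZ values lay above all SFZ values for both genes. Limma gave adjusted p = 0.209 for Col2a1 and 0.212 for Acan, and with the block 0.095 and 0.0823. Without SFZ library 3 the differences were -1.18 and -1.30, and with quantile normalization -0.91 and -1.87.

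Matn3, a matrilin that links cartilage fibrils, measured 55.0, 38.0 and 15.8 FPKM in SFZ libraries 1 to 3 and 203, 63.1 and 92.8 FPKM in the DZ, a difference of -1.69 (SE 0.58). Fibronectin, Fn1, differed by -0.87 (SE 0.23) with no overlap. The exceptions were on the SFZ side. Vcan, versican, a large proteoglycan of loose and fibrous matrix, measured 12.8, 16.9 and 12.0 FPKM in the SFZ and 1.92, 3.16 and 3.61 FPKM in the DZ. Its difference of 1.95 (SE 0.22) passed limma with the block (adjusted p = 0.0321), as did that of Matn2, another matrilin, at 0.83 (adjusted p = 0.0438). These were the 2 genes of the list called in the SFZ direction (9.09%, against 2.51% of all genes).

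**Figure D3:**
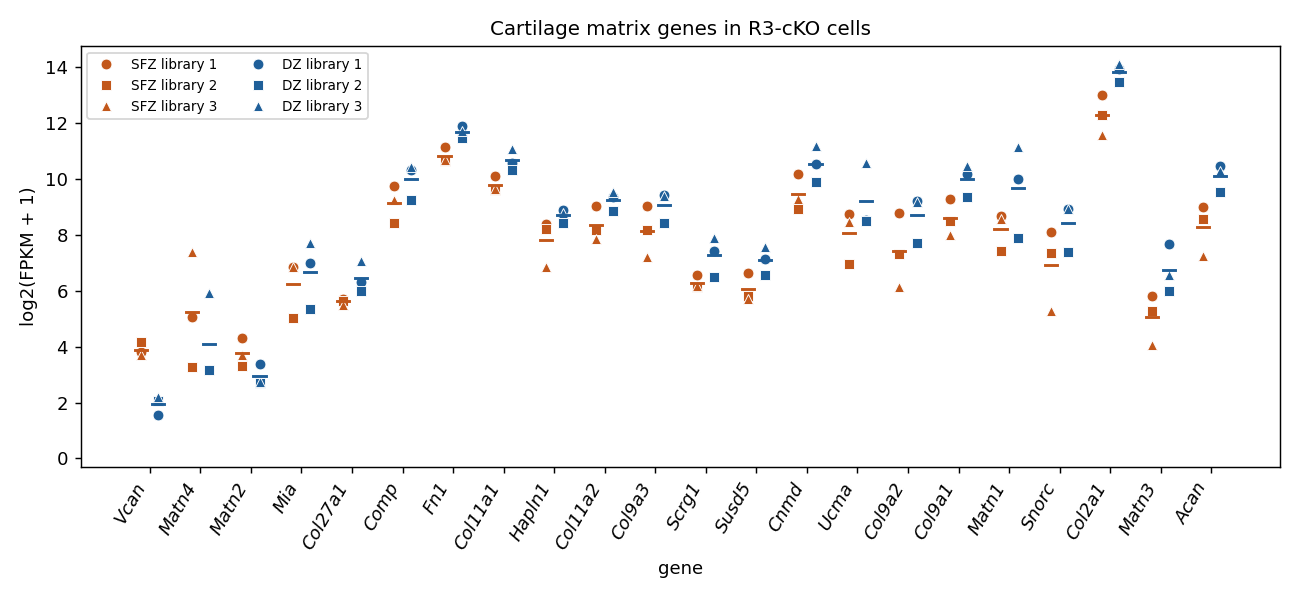
Values of the 22 cartilage matrix genes in each R3-cKO library on the log2(FPKM + 1) scale, with bars at the mean of 3 libraries. Acan and Col2a1 lie lower in every SFZ library than in every DZ library, and Vcan lies higher.

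The machinery that builds chondroitin sulfate followed the same direction. Of 23 genes tested, 16 were higher in DZ cells (69.6%, against 34.6% of all genes), 4 were over 2-fold higher there without overlap (17.4%, against 0.767%) and 0 in the SFZ, and the median was -0.38 (-0.27 without SFZ library 3). Papss2, which makes the sulfate donor, measured 163, 129 and 61.1 FPKM in SFZ libraries 1 to 3 and 368, 214 and 281 FPKM in the DZ, and Chst11, a chondroitin sulfotransferase, 42.2, 39.4 and 20.7 FPKM and 98.1, 75.5 and 114 FPKM. Both were separated without overlap, at -1.36 (SE 0.40) and -1.51 (SE 0.30). The sulfate transporter Slc26a2 differed by -1.10 and the nucleotide sugar transporter Slc35d1 by -1.07 (-0.63 without SFZ library 3). Limma with the block called 1 gene (4.35%, against 0.591% of all genes), the chondroitin synthase Chsy3 at -0.60 (adjusted p = 0.0448, and -0.39 without SFZ library 3), and not these 4 (adjusted p = 0.0745, 0.0694, 0.0537 and 0.0795).

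Of 11 chondrocyte transcription factors tested, 7 were higher in DZ cells, with a median of -0.39 (-0.37 without SFZ library 3). Sox9, the factor needed for chondrocyte fate and Col2a1 expression, measured 74.1, 63.7 and 44.6 FPKM in SFZ libraries 1 to 3 and 105, 87.6 and 111 FPKM in the DZ. Its difference was -0.75 (SE 0.21, limma adjusted p = 0.218, and 0.0957 with the block), and its partner Sox6 differed by -0.71 (SE 0.16). Both were lower in each SFZ library than in any DZ library, as were 481 of all 11336 genes, and passed neither test. Foxa2, a forkhead factor of hypertrophic chondrocytes, measured 1.56, 1.31 and 0.39 FPKM in the SFZ and 4.27, 4.93 and 3.57 FPKM in the DZ. It was the single gene of this list that limma called with the block (9.09%, against 0.591% of all genes, at -1.37 and adjusted p = 0.0398).

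Genes of hypertrophy and mineralization were split. Of 20 tested, 11 were higher in SFZ and 9 in DZ cells, with a median of 0.09 that became -0.02 under median-of-ratios scaling, and 2 genes in each direction were over 2-fold without overlap (10% each, against 2.86% of all genes toward the SFZ and 0.767% toward the DZ). Called by limma with the block were 2, both toward the SFZ (10%, against 2.51%). Col10a1, the collagen of hypertrophic chondrocytes, measured 30.6, 255 and 3.67 FPKM in SFZ libraries 1 to 3 and 289, 318 and 59.2 FPKM in the DZ. The values overlapped, the SFZ library of number 2 being close to its DZ partner, and the difference was -2.40 (SE 1.47), or -0.98 without SFZ library 3. Mgp, matrix Gla protein, an inhibitor of calcification, measured 1659, 683 and 3583 FPKM in the SFZ and 371, 266 and 1065 FPKM in the DZ. It was higher in the SFZ in each of the 3 pairs, by 1.76 (SE 0.74, limma adjusted p = 0.364, and 0.035 with the block). Bglap, osteocalcin, was also called with the block at 2.48 (adjusted p = 0.0363), though it has near-identical copies between which reads may have been divided, so this value is uncertain. With DZ values of 1.04, 0 and 0.57 FPKM, its SFZ libraries alone would have sufficed for the filter on low values.

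In the axis of PTHrP and Indian hedgehog, which sets the pace of chondrocyte maturation, 7 of 11 genes tested were higher in SFZ cells (63.6%, against 65.4% of all genes), with a median of 0.18 that was 0.02 to 0.24 with a library left out. Pairs 1 to 3 had medians of 0.56, 0.31 and -0.59, so pair 3 went the other way. Gas1, a membrane co-receptor for hedgehog ligands, measured 177, 123 and 605 FPKM in SFZ libraries 1 to 3 and 9.60, 36.7 and 53.3 FPKM in the DZ. It was the 1 gene of the list that passed limma with the block (9.09%, against 2.51% of all genes), at 3.09 (SE 0.80, adjusted p = 0.0499). Pth1r, the receptor for PTHrP, differed by -1.01 (SE 0.25) and Fgfr3, a receptor that restrains chondrocyte proliferation, by -1.34 (SE 0.51, and -0.81 without SFZ library 3). These 2 were over 2-fold higher in DZ cells without overlap (18.2%, against 0.767% of all genes) and were not called (adjusted p = 0.0517 and 0.106 with the block).

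The superficial zone list was only in part separated. Of its 20 genes 17 were tested, and 15 were higher in SFZ cells (88.2%, against 65.4% of all genes). Over 2-fold higher without overlap were 8 (47.1%, against 2.86%), and limma with the block called 4, Abi3bp, Osr2, Dkk3 and Sfrp2 (23.5%, against 2.51%). Without Vcam1, which entered the test through its SFZ libraries alone, these were 7 and 4 of 16. Sfrp2 is in both counts and was picked with earlier results of these data known. For the superficial zone list the median was 0.91, and 0.68 to 1.49 with a library left out. Abi3bp, a matrix protein that binds SH3 domains, measured 209, 124 and 599 FPKM in SFZ libraries 1 to 3 and 11.1, 26.2 and 64.9 FPKM in the DZ, a difference of 3.17 (SE 0.78). Dpt, dermatopontin, differed by 2.73 (1.51 without SFZ library 3) and Cilp2, a cartilage intermediate layer protein, by 2.56. Both had values without overlap and passed neither test (adjusted p = 0.0538 and 0.0643 in limma with the block). Dpt, at 0.02, 0.2 and 2.73 FPKM in the DZ, could have passed the filter on low values through its SFZ libraries alone.

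Prg4 (chr1:152296542-152313295, reverse strand of mm9), which defines the surface layer, stood outside this pattern. In libraries labelled R3-cKO it measured 6.95, 2.47 and 2.13 FPKM in the SFZ and 5.72, 1.32 and 2.14 FPKM in the DZ. The zones overlapped, and number 1 was high in both. The difference was 0.27 (SE 0.51, limma adjusted p = 0.88), and with the block its SE was 0.14 and adjusted p = 0.27, the SFZ library being higher in 2 of 3 pairs. It was -0.15 without SFZ library 1 and -0.06 without DZ library 2, values that carry the difference between numbers because the partner was kept, and 0.52 without SFZ library 3. In R3-Cntl it measured 22.2, 8.38 and 7.13 FPKM in the SFZ and 1.39, 1.22 and 1.47 FPKM in the DZ, without overlap, a difference of 2.36. Exons of Prg4 overlap those of Tpr.

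Progenitor and mesenchymal surface genes leaned to neither zone by sign, but their large differences were all toward the SFZ. Of 13 tested, 8 were higher in SFZ cells (61.5%, against 65.4% of all genes), with a median of 0.30 that was 0.23 to 0.57 with a library left out. Over 2-fold higher without overlap were 4 (30.8%, against 2.86%), with 0 in the DZ direction. Besides Cd34, limma with the block called Thy1, a glycoprotein of fibroblasts and mesenchymal progenitors, and the TGF-beta co-receptor Eng, 3 in all (23.1%, against 2.51%). Thy1 measured 23.1, 11.9 and 45.2 FPKM in SFZ libraries 1 to 3 and 3.61, 1.53 and 1.12 FPKM in the DZ, a difference of 3.06 (SE 0.51, adjusted p = 0.0499). The platelet-derived growth factor receptors Pdgfra and Pdgfrb differed by 1.72 and 1.16 without overlap and were not called. Itgb1, the most abundant member, differed by 0.30 with overlapping values.

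Of 16 Wnt antagonists and targets tested, 10 were higher in SFZ cells (62.5%, against 65.4% of all genes), with a median of 0.49. Over 2-fold higher without overlap were 4 (25.0%, against 2.86%), and limma with the block called 3, Sfrp2, Dkk3 and Rspo2 (18.8%, against 2.51%). Without Rspo2 and Notum, which entered the test through their SFZ libraries alone, these were 3 and 2 of 14. Both counts again hold Sfrp2, picked with earlier results of these data known. Dkk3, a secreted Dickkopf family protein, measured 35.4, 37.1 and 107 FPKM in SFZ libraries 1 to 3 and 7.42, 10.3 and 34.4 FPKM in the DZ. Number 3 was the highest in both zones, and the difference was 1.83 (SE 0.66), with limma adjusted p = 0.302 without the block and 0.0284 with it. Wif1, another secreted Wnt inhibitor, measured 54.9, 24.6 and 14.7 FPKM against 1.77, 9.60 and 4.21 FPKM, 2.40 apart, and was not called (adjusted p = 0.098 with the block).

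In the BMP and GDF list 13 of 21 tested genes were higher in SFZ cells (61.9%, against 65.4% of all genes), 2 were over 2-fold higher without overlap (9.52%, against 2.86%), and the median of 0.14 was -0.03 without SFZ library 2. Chrdl1, a chordin-like BMP antagonist, was the 1 gene called with the block in limma (4.76%, against 2.51% of all genes), at 1.19 (adjusted p = 0.0499). The ligand Bmp4 measured 22.5, 58.6 and 31.3 FPKM in SFZ libraries 1 to 3 and 5.37, 14.9 and 18.6 FPKM in the DZ, a difference of 1.502 (SE 0.52, adjusted p = 0.0588 with the block). It separated the zones without overlap and was not called. The BMP target Id1 was at 0.02 (0.14 without SFZ library 3) and turned to -0.09 under median-of-ratios scaling.

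Insulin-like growth factor genes lay on both sides. Of 12 tested, 8 were higher in SFZ cells (66.7%, against 65.4% of all genes) and 4 were over 2-fold higher without overlap (33.3%, against 2.86%). The median of 0.74 came mostly from pair 1, with 1.34, 0.23 and 0.20 in pairs 1 to 3, and was 0.44 to 1.10 with a library left out. Limma with the block called 2 (16.7%, against 2.51%), Igfbp2 and Igfbp6, which bind and hold the ligands. Igfbp2 measured 61.6, 43.1 and 151 FPKM in SFZ libraries 1 to 3 and 2.76, 2.28 and 29.8 FPKM in the DZ, a difference of 3.37 (SE 0.94, adjusted p = 0.035). The ligand Igf1 measured 4.34, 17.6 and 51.5 FPKM against 0.39, 1.14 and 0.37 FPKM, 3.44 apart, and Igfbp3 differed by 3.61. For Igf1 the SFZ libraries alone would have sufficed for the filter on low values. The other ligand, Igf2, was the most abundant gene of the list and leaned toward the DZ, with 2987, 2401 and 1510 FPKM in the SFZ and 4069, 3211 and 5199 FPKM in the DZ. It did not overlap between zones, and its difference of -0.88 (SE 0.33) was not called.

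Matrix proteases and their inhibitors were higher in SFZ cells in 15 of 17 genes tested (88.2%, against 65.4% of all genes), with a median of 0.82 (0.57 without SFZ library 3). Over 2-fold without overlap there were 4 in the SFZ direction (23.5%, against 2.86% of all genes) and 0 in the DZ direction. Limma with the block called 4 (23.5%, against 2.51%), Mmp23, Adamts2, Adamts5 and Adamts12. Adamts5 (chr16:85858415-85901370, reverse strand of mm9), an aggrecanase, measured 11.8, 13.2 and 13.0 FPKM in SFZ libraries 1 to 3 and 1.40, 3.38 and 2.96 FPKM in the DZ. Its values were even in the SFZ but not in the DZ, and the difference was 1.98 (SE 0.24, limma adjusted p = 0.0736, and 0.0302 with the block). Adamts2, which trims the ends of fibrillar procollagen, differed by 2.12 (adjusted p = 0.0499 with the block). Mmp14, a membrane collagenase, measured 174, 140 and 424 FPKM against 48.4, 77.1 and 90.1 FPKM, 1.64 apart, and was not called (adjusted p = 0.0561). The protease inhibitor Timp3 was the most abundant gene of the list, at -0.42 with overlapping values.

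Small leucine-rich proteoglycans, which coat collagen fibrils, went both ways. Of 11 tested, 8 were higher in SFZ cells (72.7%, against 65.4% of all genes) with a median of 0.55 that was 0.32 to 0.86 with a library left out, and limma with the block called Aspn and Podn in that direction (18.2%, against 2.51%). Bgn, biglycan, was the most abundant, with 1423, 1066 and 2122 FPKM in SFZ libraries 1 to 3 and 949, 925 and 1169 FPKM in the DZ, a difference of 0.55 with overlap (0.29 without SFZ library 3). Aspn alone was over 2-fold higher in the SFZ without overlap (9.09%, against 2.86% of all genes). Epyc, described above, alone was so in the DZ (9.09%, against 0.767%), and each share is a single gene. Among genes without overlap and with a mean of at least 10 FPKM in the higher zone, Epyc had the largest difference toward the DZ. Aspn was among the largest toward the SFZ.

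Genes of glycolysis and the hypoxia response leaned toward the DZ, with 18 of 25 tested genes higher there (72.0%, against 34.6% of all genes), a median of -0.44 (-0.34 without SFZ library 3) and medians of -0.42, -0.14 and -0.85 in pairs 1 to 3. Bnip3, a hypoxia target that acts on mitochondria, measured 61.1, 45.0 and 33.4 FPKM in SFZ libraries 1 to 3 and 121, 74.2 and 131 FPKM in the DZ. The glucose transporter Slc2a1 measured 40.8, 49.7 and 24.9 FPKM against 103, 70.3 and 59.5 FPKM. These 2 and Pfkl, a phosphofructokinase, were the 3 genes over 2-fold higher in DZ cells without overlap (12.0%, against 0.767% of all genes), at -1.21, -1.01 and -1.04. Limma with the block called 1 gene of the list (4%, against 0.591%), the hexokinase Hk2 at -0.83 (adjusted p = 0.0499). Gapdh, the most abundant, differed by -0.68 with overlapping values (-0.34 without SFZ library 3).

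**Figure D4:**
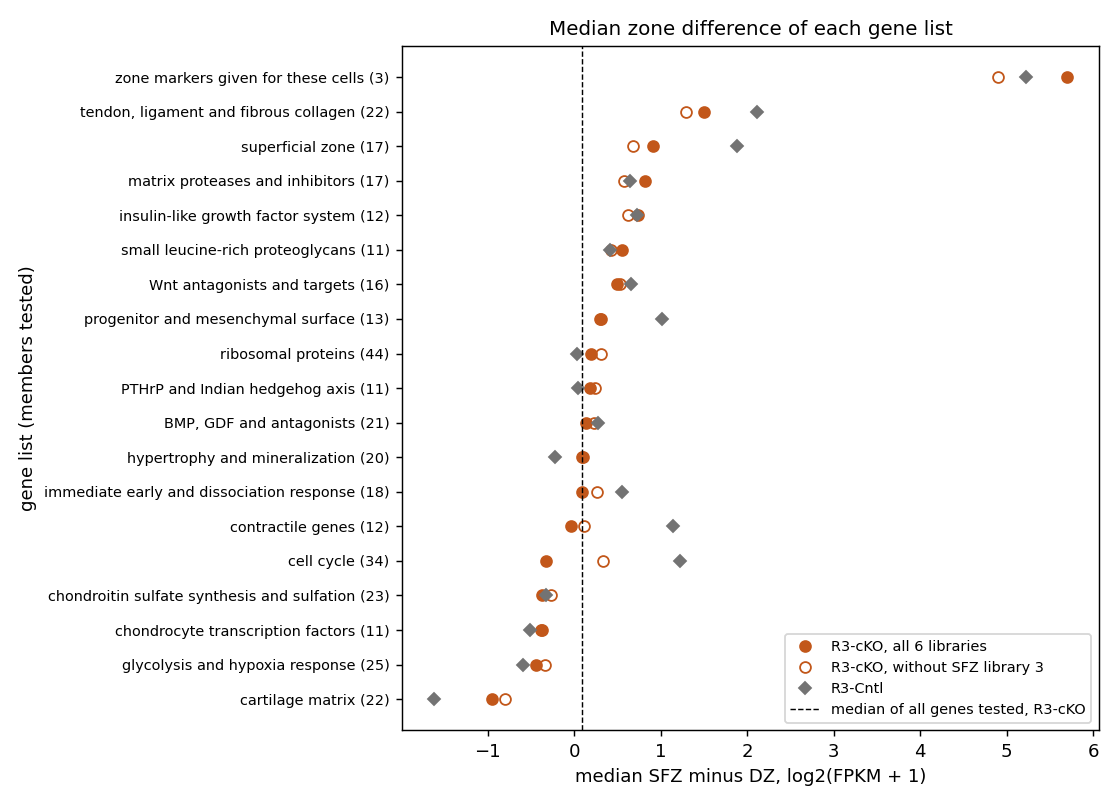
Median difference, SFZ minus DZ on the log2(FPKM + 1) scale, of the tested members of each list in R3-cKO with all libraries (filled circles), in R3-cKO without SFZ library 3 (open circles) and in R3-Cntl (diamonds). In R3-cKO the tendon, ligament and fibrous collagen list lies at 1.501 and cartilage matrix at -0.95, and cell cycle moves from -0.33 to 0.33 without SFZ library 3.

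Cell cycle genes followed the library number more than the zone. The 34 genes, all tested, summed to 693, 1652 and 426 FPKM in SFZ libraries 1 to 3 and to 877, 1439 and 439 FPKM in the DZ. Number 2 was thus the highest in both zones and number 3 the lowest. Of the 34, 29 were higher in DZ cells (85.3%, against 34.6% of all genes), with a median of -0.33 and medians of -0.75, 0.13 and -0.35 in pairs 1 to 3, so pair 2 went the other way. None was called by limma and none was over 2-fold without overlap. Leaving out SFZ library 3 or 2 alone gave medians of 0.33 and -1.18, which carry the difference between numbers because the DZ partner was kept. Birc5, a mitotic survival protein, at -0.61, and the ribonucleotide reductase subunit Rrm2, at -0.64, turned to 0.35 and 0.08 without SFZ library 3. In R3-Cntl the median of the list was 1.23.

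Contractile genes behaved in a similar way, with a median of -0.03 over 12 tested genes that was 0.11 without SFZ library 3 and -0.50 without SFZ library 2. Acta2, smooth muscle actin, measured 63.7, 414 and 97.9 FPKM in SFZ libraries 1 to 3 and 302, 401 and 163 FPKM in the DZ, so number 2 was again the highest in both. Ctgf, a matricellular factor, was the exception, with 571, 395 and 235 FPKM in the SFZ and 1048, 1047 and 1007 FPKM in the DZ. Of the list Ctgf alone was over 2-fold higher in the DZ without overlap (8.33%, against 0.767% of all genes), at -1.46 (SE 0.32). It was not called (limma adjusted p = 0.0577 with the block). None of the contractile genes passed with the block.

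Lists that report on handling and composition were read beside these programs. Ribosomal protein genes were higher in SFZ cells in 44 of 44 with a median of 0.20 (0.31 without SFZ library 3), which was 0.08 under median-of-ratios scaling, where Rplp0 turned to -0.01, and 0 were called. Immediate early and dissociation genes, which enzyme treatment can raise, had a median of 0.08 over 18 tested genes, with 0 called, -0.02 under that scaling and -0.06 to 0.30 with a library left out. Macrophage markers had higher sums in the SFZ, with 0 genes called with the block. The 16 genes summed to 166, 16.8 and 78.2 FPKM in SFZ libraries 1 to 3 and to 6.99, 5.64 and 4.10 FPKM in the DZ. Lyz2 was the most abundant, 2 genes (Lyz2 and Cd68) were tested, and Ptprc, Cd163, Cx3cr1 and Fcgr1 were under 1 FPKM in all 6 libraries. Both tested genes were over 2-fold higher in the SFZ without overlap (100%, against 2.86% of all genes), with a median of 2.65. The part of macrophages in other differences was not tested.

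Tendon fibroblast markers summed to 3215, 2559 and 6321 FPKM in the SFZ and 848, 664 and 1372 FPKM in the DZ, Col1a1 the most abundant, with a median of 2.50 over the 6 of 7 genes tested. Tnmd, 1 of these 6, entered the test through its SFZ libraries alone and so had to differ. All of the tendon fibroblast markers but Fmod are also in the fibrous list, so the part of tendon cells in that list cannot be told apart from expression in SFZ chondrocytes. Osteoblast markers summed to 2358, 2099 and 5123 FPKM against 376, 703 and 1270 FPKM, again led by Col1a1. Of 6 tested, 3 were higher in SFZ cells and 3 in DZ cells. Limma with the block called Bglap, Bglap2 and Col1a1 (50.0%, against 2.51% of all genes), of which Bglap and Bglap2 are uncertain as near-identical copies, whereas Dmp1, Ifitm5, Mepe and Phex were under 1 FPKM in all 6 libraries. Of the synovial lining list 4 of 8 were tested with a median of 0.40, and 1 of the 4, Vcam1, entered through its SFZ libraries alone. Hbegf was the most abundant, and Htra4, Clic5 and Has1 were under 1 FPKM throughout.

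Markers of other cell types were read in the same way. Endothelial markers summed to 12.5, 6.81 and 8.81 FPKM in the SFZ and 5.89, 5.73 and 4.96 FPKM in the DZ, led by Erg, which chondrocytes also express, with 11 of 14, Pecam1 and Cdh5 among them, under 1 FPKM in all 6 libraries. Erythroid genes were all under 1 FPKM, led by Klf1, and keratinocyte genes, led by Perp, had 8 and skeletal muscle genes, led by Acta1, 11 members under 1 FPKM. The 3 tested keratinocyte genes had a median of 0.30 (0.03 to 0.48 with a library left out). The 3 tested skeletal muscle genes had a median of -0.34 (-0.14 without SFZ library 3). Osteoclast genes, led by Ctsk, had a median of 0.29 over 4 (0.21 to 0.58 with a library left out). Adipocyte genes, led by Lpl, had 0.20 over 4 (-0.16 to 0.49 with a library left out). Pericyte and smooth muscle genes, led by Acta2, had -0.91 over 2 (-0.50 without SFZ library 3). Schwann cell and nerve genes, led by S100b, had -0.12 over 5, which turned to 0.14 without SFZ library 3. None of these members was called with the block. Sox10, a transcription factor of Schwann cells, was under 1 FPKM in all 6 libraries.

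The zone difference under the cKO label was set beside that of R3-Cntl, whose libraries it does not share, to see where it differed. Most of the large differences of R3-cKO were found in R3-Cntl as well, though fewer of those of R3-Cntl in R3-cKO. Of the 324 SFZ genes over 2-fold without overlap, 246 were so in R3-Cntl too, 75.9% of the R3-cKO set and 51.7% of the 476 of R3-Cntl. Of the 87 DZ genes 51 were, 58.6% of the R3-cKO set and 39.2% of the 130 of R3-Cntl, and 0 genes lay in opposite sets. Across 11198 genes tested in both the differences correlated at 0.751, given as a description since genes are not independent. In R3-Cntl, without a block, limma called 123 genes in the SFZ and 17 in the DZ, and these 140 became 18 with median-of-ratios scaling and 4 with quantile normalization.

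The difference itself was tested as an interaction over all 12 libraries. Limma called 0 of 11765 genes (0%), with 99 at an unadjusted p under 0.05, of which 26 differed by more than 2-fold, and the lowest adjusted p was 0.999. The genes below are therefore given as values, and none of them is shown to differ by genotype. Prg4 had an interaction of -2.09, the zone difference of R3-cKO being the smaller, at adjusted p = 0.999 in limma. Mgp stood at 1.76 in R3-cKO and -0.45 in R3-Cntl, Cthrc1 at -1.62 and -0.35, and Angptl7 at -2.10 and 0.20. The actins Acta1 and Acta2 had interactions of -2.63 and -2.27, and Rrm2 and Birc5 -2.06 and -2.02.

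By the rule of lowest interaction p, Ptk2b, a focal adhesion kinase of the Pyk2 type, came out on the side lower in R3-cKO. It measured 0.92, 0.83 and 0.56 FPKM in SFZ libraries 1 to 3 labelled R3-cKO and 3.68, 2.81 and 2.40 FPKM in the DZ, a difference of -1.16. In R3-Cntl it measured 0.83, 1.22 and 0.93 FPKM and 0.60, 1.33 and 1.10 FPKM. Thus only the DZ libraries labelled R3-cKO were above the others, at low values. Sorbs3, a vinculin-binding adaptor, the zinc transporter Slc39a8 and Hsd11b1, which regenerates active glucocorticoid, had interactions of -0.69, -0.51 and -0.76, and a gene listed without a symbol, which lay between Ptk2b and Sorbs3 by p, -1.23. Ptk2b and Slc39a8 passed the filter on low values in R3-cKO through their DZ libraries alone. On the side higher in R3-cKO were 0610010B08Rik, Prss35, Lsp1, Ppp1r1b and Sim2 with interactions of 1.48, 0.99, 0.80, 1.01 and 0.65. Lsp1, an actin-binding protein, measured 64.4, 57.5 and 57.8 FPKM in R3-cKO SFZ and 33.7, 32.3 and 22.9 FPKM in R3-cKO DZ, against 73.4, 69.3 and 44.4 FPKM and 59.5, 50.5 and 48.3 FPKM in R3-Cntl.

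**Figure D5:**
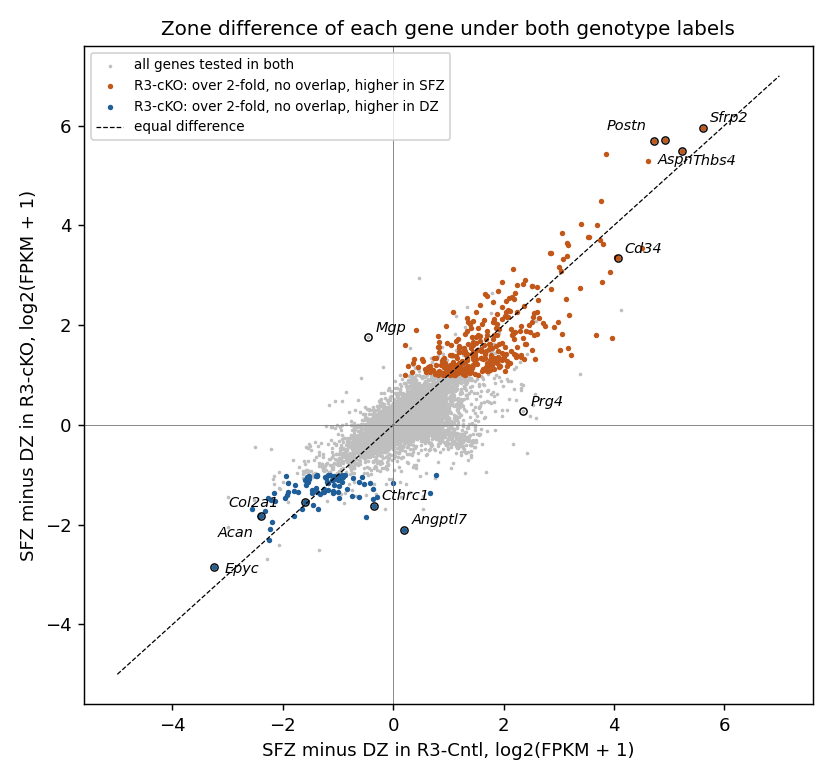
Difference between zones of each of 11198 genes, SFZ minus DZ on the log2(FPKM + 1) scale, in R3-Cntl (horizontal) and R3-cKO (vertical), with the genes over 2-fold without overlap in R3-cKO in color. Sfrp2, Postn and Thbs4 lie near the line of equal differences at the upper right and Epyc and Acan at the lower left, and Prg4, Mgp, Cthrc1 and Angptl7 lie off it.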

How the data were processed

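RNA of cultured SFZ and DZ cells was sequenced as paired-end reads on a BGISEQ-500. The authors mapped the reads to mm9 (Bowtie 0.12.2 in the submitters' processing notes), and the counting tool is not given in the sources used here. The deposited values behave as FPKM. The unit is not written beside them and was inferred from their sums and transcript lengths, and although the authors named their table for TMM, no scaling by TMM factors is seen in it. All value columns were matched to a library, and 0 were left unmapped. Depth is unknown, so error was judged from replicate spread alone, and an exact permutation test of 3 against 3 cannot go below 0.1.

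Values were analysed as log2(FPKM + 1) in R 4.3.3 with limma 3.58.1, with a mean-variance trend and Benjamini-Hochberg adjustment, for genes that reached 1 FPKM in 3 or more of 6 libraries. The fit was also run on simulated data in which each gene varied independently, whereas many genes shift together between these libraries. That run therefore does not show how often calls are false here. Lists and figures used Python 3.11.15, pandas 2.3.3, NumPy 2.4.6 and matplotlib 3.10.9. Lists are described by counts and medians, with no test over a list. A gene without overlap had all 3 values of a zone above all 3 of the other.

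Same-number R3-cKO libraries correlated at 0.41, 0.78 and 0.65 over 11342 genes after zone means were removed, and each SFZ library correlated best with its own number, which is where the pairing comes from.

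Genes named are fixed markers and Runx genes, the 12 with the largest difference in each direction among those without overlap and with a mean of at least 10 FPKM in the higher zone, up to 4 members of each list with the largest difference and 2 with the highest mean, the 5 with the lowest interaction p in each direction, and the most abundant member of each cell type list. Genes outside this rule were named after their values were seen. Members and lists were chosen with earlier results of these data known. The alternatives dropped the filter, required a mean of 10 FPKM, added 0.1 or 5 in place of 1, scaled by median of ratios or by quantiles, entered the replicate block, left the trend out, fitted all 12 libraries together or omitted each library in turn. Alternatives that need counts were not run. Chromosome positions are mm9 annotation, and promoters are RefSeq sequences of GRCm38.p6. The 1 gene of the interaction rule that has no symbol is given by its interaction alone.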

Additional observations from a re-analysis of the deposited data

How the results depend on the processing

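With 3 libraries a zone and unknown depth, low genes and differences under 2-fold are the least certain. Calls in the SFZ direction, 2 in R3-cKO without a block, were 6 with no filter, 0 with a mean of at least 10 FPKM, 1 with a pseudocount of 0.1, 1 with a pseudocount of 5, 285 with the replicate block, 149 in a model of all 12 libraries and 0 to 13 with a library left out. Calls in the DZ direction, 0 in limma, were 1 with no filter, 67 with the block and 18 in the model of 12. Genes over 2-fold without overlap, 324 in the SFZ, were 129 at a mean of at least 10 FPKM, 140 with a pseudocount of 5 and 269 to 552 with a library left out. The 87 in the DZ were 53, 32 and 51 to 169.

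Added after seeing the data, the 285 and 67 calls with the replicate block were recounted: 182 and 79 with median-of-ratios factors, 59 and 18 with quantile normalization, and 0 to 123 and 0 to 31 with a pair left out, pair 3 giving 40 and 1. Leaving out each library for the genes over 2-fold was added then too. Genes called between SFZ and DZ cells of R3-Cntl, 140 in limma, were 831 with the replicate block, where same-number libraries correlated at 0.57, 0.11 and -0.15 and so were not paired, 18 with median-of-ratios factors and 4 with quantile normalization. The interaction gave 0 calls in every fit run, with a lowest adjusted p in limma of 0.36, with the block (949 genes at an unadjusted p under 0.05), to 1.

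Of 1957 values of 132 named genes under these settings, 1860 kept direction and side of the threshold, 62 became called, 5 lost a call and 30, in 13 genes, reversed. With each library left out in turn, SFZ minus DZ ranged from -0.151 to 0.712 for Prg4, -0.372 to 0.0970 for Runx1, -0.0657 to 0.567 for Islr, -0.0400 to 0.521 for Id3, -0.303 to 0.261 for Id1, -0.384 to 1.226 for Actg2, -0.377 to 0.452 for Tpm1, -1.738 to 0.0441 for Aurka, -1.712 to 0.0783 for Rrm2, -1.619 to 0.349 for Birc5, -0.00895 to 0.181 for Rplp0, -0.415 to 0.257 for Hbegf and -0.149 to 0.140 for Ppp1r1b. Quantile normalization gave -0.0493 for Id1 and -0.0998 for Tpm1, and median-of-ratios factors -0.0880 for Id1, -0.0669 for Tpm1 and -0.0108 for Rplp0. The lists of skeletal muscle and synovial lining had no tested member at a mean of at least 10 FPKM. The cause was not tested.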
